A study of Mus musculus with 12 samples.

Results

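The genes described here are 9 of the 50686 genes counted in each library, chosen by name: the B7-family ligands Cd80, Cd86 and Icosl, the ligand Cd200, the BTLA partner Tnfrsf14, and the inhibitory receptors Ctla4, Lag3, Havcr2 and Btla. All 9 were found in the gene annotation and all 9 had enough reads to be tested, so no member was lost to the filter on low counts. B7 ligands sit on antigen-presenting cells, B cells among them, and bind receptors on T cells. CD80 and CD86 both bind the activating receptor CD28 and the inhibitory receptor CTLA-4, and ICOS ligand binds ICOS on helper T cells, a contact that germinal centre reactions depend on. CD200 binds an inhibitory receptor found mainly on myeloid cells, and BTLA, itself abundant on B cells, binds the TNF receptor family member HVEM, which Tnfrsf14 encodes.

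RNA was sequenced from spleen B cells of 12 mice, sorted for B220, the form of CD45 found on B cells, together with a fluorescent reporter. YC mice (YFPstopF/+ Cg1Cre/+, n = 3) were the normal controls and gave B220+YFP+ cells. BIC mice (Blimp1F/F IKK2castopF/stopF Cg1Cre/+, n = 3) and pBIC mice (p53F/F Blimp1F/F IKK2castopF/stopF Cg1Cre/+, n = 6) are models of activated B-cell-type diffuse large B-cell lymphoma and gave B220+GFP+ cells. All 3 genotypes carry Cg1Cre, a recombinase expressed with the IgG1 constant gene, so the controls went through Cre as well. In BIC and pBIC it removes Blimp1, a plasma cell factor, and switches on a constitutively active IKK2, a kinase of the NF-kB pathway. In pBIC it removes the tumour suppressor p53 too. The labels give neither the age nor the sex of the mice, and the labelled groups differ in the reporter as well as in genotype. The deposited names of the pBIC libraries carry the letters h and l. The labels do not say what these letters mean, and the pBIC libraries were kept together as a single group.

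The unit of every level is CPM, a gene's counts for each 1000000 counts of its TMM-scaled library, and levels of different genes are compared only as CPM per kb of exon. Library totals ran from 33127283 to 47067627 counts. The 8 B cell markers examined were above 0 in every library and summed to 9118 to 10881 CPM in YC, 9051 to 9983 in BIC and 2525 to 7453 in pBIC. None of the 8 was called between BIC and YC (edgeR and DESeq2 both gave 0, and 1 had an unadjusted p under 0.05), while 4 were lower in pBIC than in YC and 4 lower than in BIC. Of all tested genes, edgeR called 8.88% between BIC and YC, and 10.2% were lower in pBIC than in YC and 8.78% lower than in BIC. Some libraries stood apart within their group. The 3 YC libraries held Y-linked transcripts and the 3 BIC libraries held Xist, so for BIC against YC genotype and sex cannot be told apart. In pBIC, libraries 2, 4 and 5 held Xist, libraries 3 and 6 held Y-linked transcripts and library 1 held little of either. Neutrophil markers summed to 262 CPM in YC 1 against 9.15 and 2.61 in the other YC libraries, and to 852, 1405 and 60.7 CPM in BIC 1, 2 and 3. In bulk RNA, fewer cells of a type and less RNA per cell cannot be told apart.

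The start-site regions of the 4 members called in at least 1 comparison are shown because these are the genes whose transcripts moved. Each is 250 bases before to 50 bases after the RefSeq start site on GRCm38.p6, written 5′ to 3′ on the gene's own strand, with CpG dinucleotides in capitals. The windows are chr16:38458683-38458982 (plus strand) for Cd80, chr10:78069118-78069417 (plus strand) for Icosl, chr16:45409004-45409303 (minus strand) for Cd200 and chr16:45224087-45224386 (plus strand) for Btla.
Cd80: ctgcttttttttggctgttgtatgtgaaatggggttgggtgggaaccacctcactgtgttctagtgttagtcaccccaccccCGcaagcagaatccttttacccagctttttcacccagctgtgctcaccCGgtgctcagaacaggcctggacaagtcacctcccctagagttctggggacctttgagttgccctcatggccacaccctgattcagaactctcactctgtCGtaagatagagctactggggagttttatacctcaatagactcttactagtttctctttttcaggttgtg
Icosl: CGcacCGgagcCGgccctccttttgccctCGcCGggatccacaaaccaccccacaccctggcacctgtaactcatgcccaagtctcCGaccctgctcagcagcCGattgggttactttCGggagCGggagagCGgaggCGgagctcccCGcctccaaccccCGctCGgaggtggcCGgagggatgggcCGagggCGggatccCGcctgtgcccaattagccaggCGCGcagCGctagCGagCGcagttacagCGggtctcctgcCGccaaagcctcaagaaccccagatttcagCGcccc
Cd200: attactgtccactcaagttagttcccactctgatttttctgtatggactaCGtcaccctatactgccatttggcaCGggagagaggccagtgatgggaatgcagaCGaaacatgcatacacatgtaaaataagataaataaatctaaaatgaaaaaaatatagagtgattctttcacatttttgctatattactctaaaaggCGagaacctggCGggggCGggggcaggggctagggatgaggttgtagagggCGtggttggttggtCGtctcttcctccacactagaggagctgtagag
Btla: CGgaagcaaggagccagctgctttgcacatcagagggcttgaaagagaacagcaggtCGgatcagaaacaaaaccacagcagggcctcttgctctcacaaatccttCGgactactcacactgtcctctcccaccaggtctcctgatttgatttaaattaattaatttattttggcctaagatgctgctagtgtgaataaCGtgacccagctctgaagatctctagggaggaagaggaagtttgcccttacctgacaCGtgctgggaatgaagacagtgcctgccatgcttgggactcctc
The Icosl window is a CpG-rich promoter, with 26 CpG and 68.0% G+C, and 83.1% of the 32851 RefSeq promoter windows of the same length held fewer CpG. The Cd80 window held 3 CpG and 49.7% G+C, the Btla window 5 and 49.0%, and the Cd200 window 8 and 45.0%, beside medians of 7 CpG and 52.7% over all windows. These base counts describe the windows only.

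Across the 9 members, 2 were called in BIC against YC, with Cd80 higher and Icosl lower, where 8.88% of the 17754 tested genes were called, 3.9% higher and 4.97% lower. Against YC, pBIC had 4 called members, Cd80 higher and Icosl, Cd200 and Btla lower, where 22.0% of all genes were called, 11.8% higher and 10.2% lower. Against BIC, pBIC had 4 called members, Cd80, Icosl, Cd200 and Btla, all lower, where 19.7% of all genes were called, 10.9% higher and 8.78% lower. The members' median log2 fold change was 0.55 in BIC against YC, -0.46 in pBIC against YC and -1.01 in pBIC against BIC, beside 0.01, 0.10 and 0.09 over all tested genes. The libraries of the groups did not overlap for 7, 4 and 5 members in those comparisons, against 45.2%, 26.1% and 21.6% of all tested genes. The comparisons of BIC and pBIC with YC share the YC libraries, so their values are set side by side and are not independent.

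**Figure D1:**
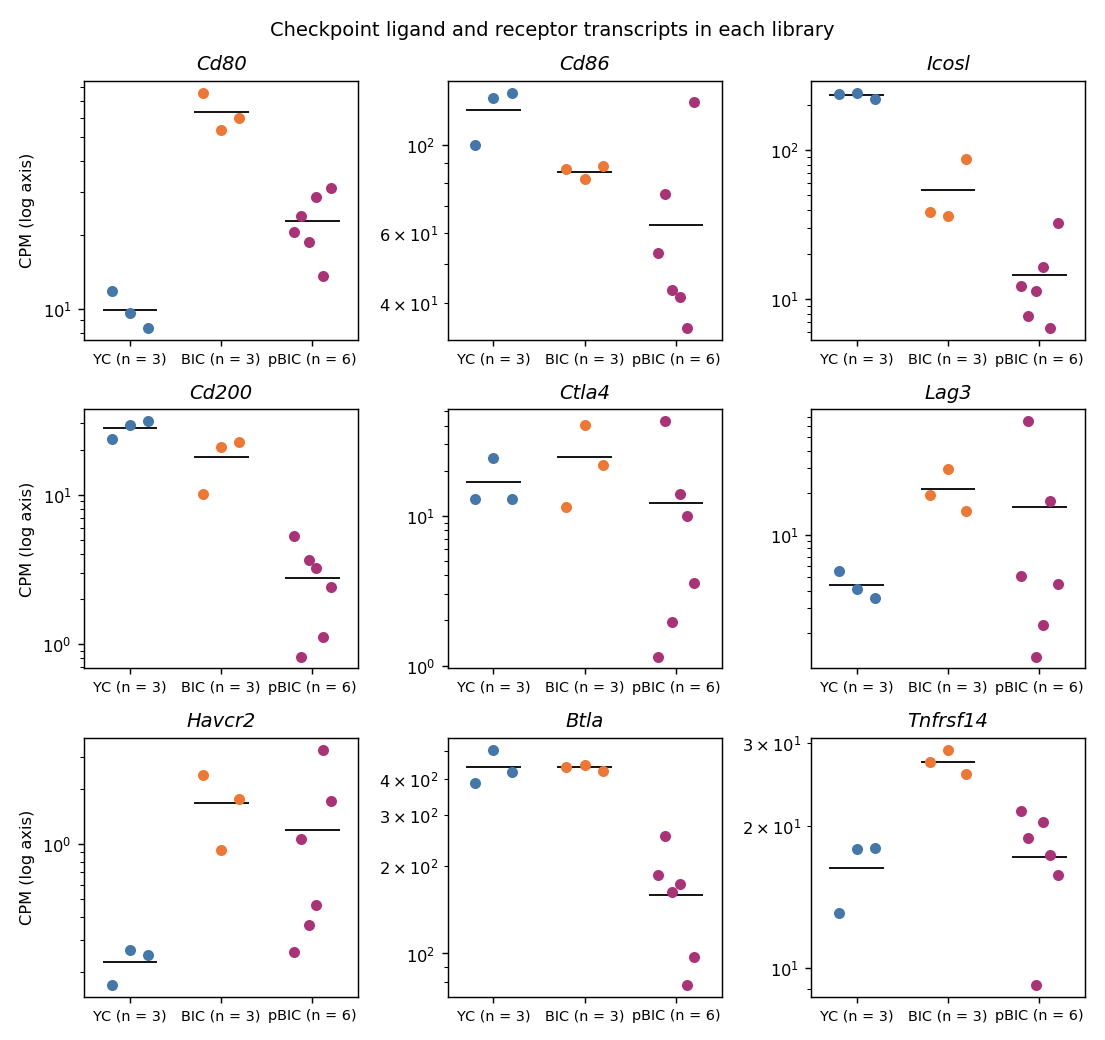
CPM of each of the 9 members in each library on a log axis, 1 point per mouse, with the group mean as a line (YC n = 3, BIC n = 3, pBIC n = 6). Cd80 is lowest in YC and highest in BIC, while Icosl, Cd200 and Btla are lowest in the 6 pBIC libraries, and Ctla4 and Lag3 spread widest within pBIC.

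Cd80 was the B7 ligand that rose in both lymphoma models. Cd80 (ENSMUSG00000075122.4, chromosome 16, 38458933 to 38486933, plus strand, GRCm38) stood at 11.8, 9.59 and 8.36 CPM in YC 1, 2 and 3 and at 75.7, 53.3 and 59.9 CPM in BIC 1, 2 and 3. In pBIC its lowest, median and highest levels were 13.7, 22.3 and 31.1 CPM. The 3 groups did not overlap in any pairing, with YC lowest, pBIC between and BIC highest. In BIC it was 6.34-fold higher than in YC (log2 fold change of 2.66, SE 0.30, 95% interval 2.002 to 3.33, edgeR adjusted p = 0.0012). In pBIC it was 2.29-fold higher than in YC (1.20 ± 0.26, interval 0.63 to 1.77, edgeR adjusted p = 0.00745) and lower than in BIC (-1.47 ± 0.24, interval -1.99 to -0.95, edgeR adjusted p = 0.00242). These calls held in every alternative fit and without any single library.

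Cd86, the other ligand of CD28 and CTLA-4, did not pass the edgeR test in any comparison, while DESeq2 called it lower in pBIC against YC (-0.99, DESeq2 adjusted p = 0.036). Cd86 (ENSMUSG00000022901.13, chromosome 16, 36603869 to 36666081, minus strand) stood at 99.9, 132 and 135 CPM in YC, at 86.8, 82.0 and 88.4 CPM in BIC, and at 34.5, 48.2 and 129 CPM (lowest, median and highest) in pBIC. All 3 BIC libraries lay below all 3 YC libraries, and 5 of the 6 pBIC libraries lay below every BIC library, with pBIC 6 the exception. The log2 fold change was -0.51 ± 0.41 for BIC against YC (interval -1.41 to 0.38, edgeR adjusted p = 0.471), -0.96 ± 0.35 for pBIC against YC (-1.72 to -0.21, edgeR adjusted p = 0.0649) and -0.45 ± 0.35 for pBIC against BIC (-1.22 to 0.31, edgeR adjusted p = 0.39). The edgeR calls of the last pair depended on pBIC 6: without it, Cd86 was lower in pBIC than in YC (-1.29, edgeR adjusted p = 0.00275) and than in BIC (-0.81, edgeR adjusted p = 0.0277). That library also held the highest macrophage and monocyte marker sum of the pBIC group, 362 CPM over 12 genes where the other pBIC libraries held 30.3 to 149. The part of those cells in its Cd86 level was not tested.

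The balance of the 2 ligands therefore differed between the groups. The ratio of Cd80 to Cd86, both per kb of exon, was 0.255, 0.157 and 0.133 in YC 1, 2 and 3 and 1.88, 1.40 and 1.46 in BIC 1, 2 and 3. In pBIC its lowest, median and highest values were 0.520, 0.841 and 1.49. Cd86 was thus the more abundant transcript in every YC library and Cd80 in every BIC library, while in pBIC Cd86 was the more abundant in 5 libraries and Cd80 in 1, pBIC 4. Cd80 made up 11.7 to 20.3% of the summed level in YC, 58.4 to 65.2% in BIC and 34.2 to 59.8% in pBIC. The sum of both ligands was 34.3 to 41.9 CPM per kb in YC, 53.7 to 68.2 in BIC and 17.4 to 53.4 in pBIC, so BIC lay above YC and 4 of the 6 pBIC libraries lay below every YC library.

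**Figure D2:**
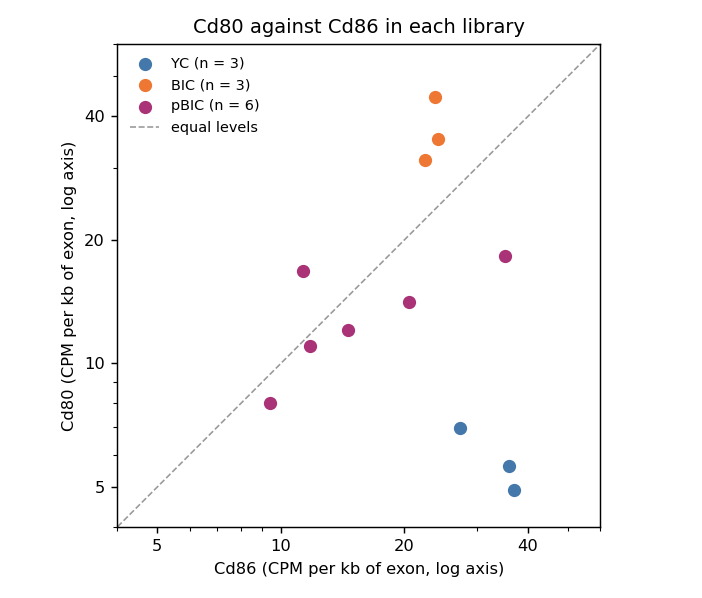
Cd80 against Cd86 in each library, both in CPM per kb of exon on log axes, with the dashed line marking equal levels (YC n = 3, BIC n = 3, pBIC n = 6). The YC libraries lie below the line at ratios of 0.133 to 0.255, the BIC libraries above it at 1.40 to 1.88, and pBIC at 0.520 to 1.49, with 1 library above the line.

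Other antigen-presenting cells also make these ligands, so their markers stand beside the Cd80 values. The summed level of 12 macrophage and monocyte markers was 57.0 to 104 CPM in YC, 194 to 326 in BIC and 30.3 to 362 in pBIC. In BIC against YC, edgeR called Itgam and Cd68 higher and Adgre1 lower, where 3.9% of all tested genes rose and 4.97% fell. The median log2 fold change of this list was 2.62, beside 0.01 over all tested genes. For 9 of its 12 genes the BIC and YC libraries did not overlap, against 45.2% of all tested genes. The summed level of 8 dendritic cell markers was 64.6 to 97.4 CPM in YC and lower, at 16.8 to 21.3 CPM, in BIC and, at 12.6 to 25.7 CPM, in pBIC. In BIC against YC that sum followed its most abundant members, Flt3 (47.2 to 1.25 CPM, called lower) and Itgax (25.0 to 6.08 CPM, not called), while Batf3 was called higher and the list's median log2 fold change was 0.36. Of the macrophage list, Cd14 was at 0 in YC 3, and Fcgr1 was at 0 in YC 2, YC 3, pBIC 3 and pBIC 4. Of the dendritic list, Clec9a was at 0 in 3 libraries and Cd209a in 6. The part of these cells in the ligand levels was not tested.

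Icosl fell in both models against YC, and in pBIC against YC by the largest factor of the 9 members. Icosl (ENSMUSG00000000732.9, chromosome 10, 78069302 to 78083913, plus strand) stood at 238, 243 and 220.1 CPM in YC 1, 2 and 3 and at 38.7, 36.2 and 87.2 CPM in BIC 1, 2 and 3. In pBIC its lowest, median and highest levels were 6.41, 11.8 and 32.5 CPM. The 3 groups formed separate steps downward, and within BIC BIC 3 stood above the other libraries. Icosl was 4.32-fold lower in BIC than in YC (log2 fold change -2.11 ± 0.55, interval -3.31 to -0.91, edgeR adjusted p = 0.035). It was 16.2-fold lower in pBIC than in YC (-4.01 ± 0.46, interval -5.01 to -3.02, edgeR adjusted p = 0.000288) and lower in pBIC than in BIC (-1.90 ± 0.44, interval -2.87 to -0.94, edgeR adjusted p = 0.0123). The BIC call was lost without YC 1, YC 2, YC 3, BIC 1 or BIC 2, with log2 fold changes of -2.60 to -1.85 over all leave-one-out fits and adjusted p up to 0.133. The call between the models was lost without BIC 3 (-1.41, edgeR adjusted p = 0.0652).

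Cd200 did not pass the test in BIC against YC and fell in pBIC against both other groups. Cd200 (ENSMUSG00000022661.14, chromosome 16, 45382135 to 45409053, minus strand) stood at 23.5, 29.4 and 31.0 CPM in YC, at 10.2, 20.9 and 22.6 CPM in BIC, and at 0.822, 2.83 and 5.30 CPM (lowest, median and highest) in pBIC. Every pBIC library lay below every other library. Cd200 was 10.1-fold lower in pBIC than in YC (log2 fold change -3.34 ± 0.49, interval -4.41 to -2.27, edgeR adjusted p = 0.00101) and 6.49-fold lower than in BIC (-2.70 ± 0.49, interval -3.76 to -1.64, edgeR adjusted p = 0.00386). The BIC libraries were all below the YC libraries, but the difference did not pass the test (-0.64 ± 0.58, interval -1.91 to 0.62, edgeR adjusted p = 0.525).

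Btla was the most abundant member per kb of exon in all 3 groups, and it fell in pBIC. Btla (ENSMUSG00000052013.14, chromosome 16, 45224315 to 45252895, plus strand) stood at 388, 506 and 424 CPM in YC, at 443, 449 and 428 CPM in BIC, and at 77.8, 168 and 255 CPM (lowest, median and highest) in pBIC. The BIC values lay inside the YC range, and every pBIC value lay below both. Btla was 2.77-fold lower in pBIC than in YC (log2 fold change -1.47 ± 0.29, interval -2.11 to -0.83, edgeR adjusted p = 0.00477) and lower than in BIC by the same amount (-1.47 ± 0.29, edgeR adjusted p = 0.00615). For BIC against YC the log2 fold change was 0.00 ± 0.35 with an interval of -0.77 to 0.77.

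Tnfrsf14, which encodes the BTLA partner HVEM, was highest in BIC. Tnfrsf14 (ENSMUSG00000042333.15, chromosome 4, 154922210 to 154928563, minus strand) stood at 13.1, 17.9 and 18.0 CPM in YC, at 27.3, 29.0 and 25.7 CPM in BIC, and at 9.19, 18.1 and 21.5 CPM (lowest, median and highest) in pBIC. All 3 BIC libraries lay above the other 9, and pBIC and YC overlapped. It did not pass the edgeR test in BIC against YC (0.75 ± 0.28, interval 0.13 to 1.36, edgeR adjusted p = 0.12), in pBIC against YC (0.07 ± 0.24, edgeR adjusted p = 0.851) or in pBIC against BIC (-0.67 ± 0.24, interval -1.19 to -0.15, edgeR adjusted p = 0.0663). The first of these passed without pBIC 3 (adjusted p = 0.0386) and the last without pBIC 1 (adjusted p = 0.0456, both edgeR). DESeq2 on all libraries called the last as well (-0.70, DESeq2 adjusted p = 0.0273). The ratio of Btla to Tnfrsf14 per kb was 8.43 to 10.6 in YC, 5.52 to 5.93 in BIC and 1.60 to 6.30 in pBIC, so BIC lay below YC and pBIC reached lowest.

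The Btla and Cd200 genes are neighbours on chromosome 16, 129240 bases apart, with 0 other tested genes between them. Both were called lower in pBIC, and the fold was larger for Cd200 in both comparisons, a difference that was not tested. Cd80 and Cd86 lie on the same chromosome. Of its 519 tested genes, 45 were called higher and 59 lower in pBIC against YC, and 37 higher and 48 lower in pBIC against BIC. In both comparisons a smaller share of its genes was called than of all tested genes, 22.0% against YC and 19.7% against BIC. Over all tested genes, 11.8% rose and 10.2% fell against YC, and 10.9% rose and 8.78% fell against BIC. The median log2 fold change was 0.05 on this chromosome in both comparisons, beside 0.10 and 0.09 over all tested genes. Whether lower calls were more frequent on this chromosome was not tested.

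**Figure D3:**
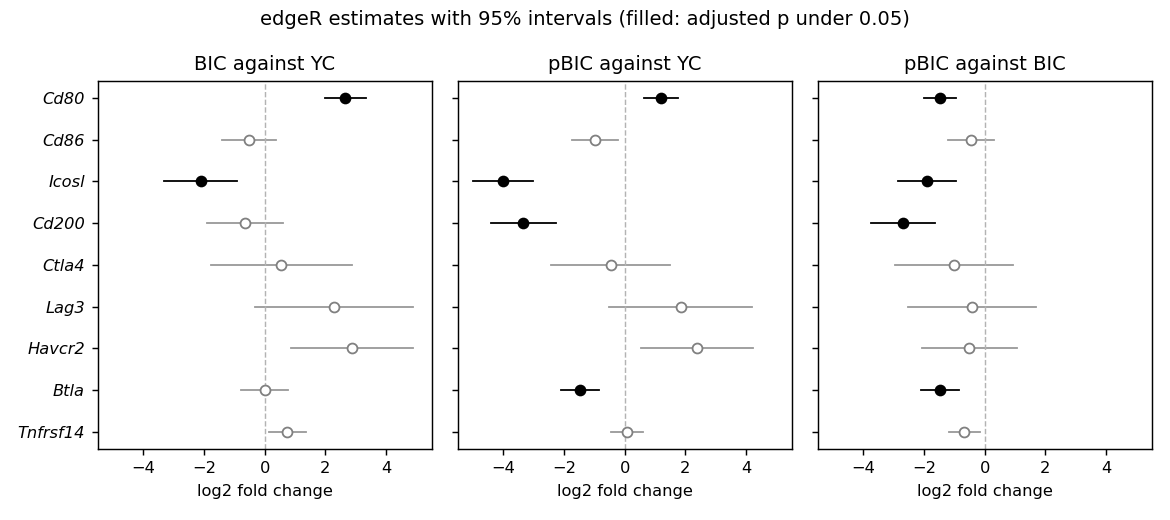
Log2 fold changes of the 9 members in each comparison, with 95% intervals from the edgeR fit over all 12 libraries; filled points passed an adjusted p under 0.05. Cd80 is the one member called higher, in BIC and pBIC against YC, and Icosl is called lower in all 3 panels, while the intervals of Ctla4, Lag3 and Havcr2 are the widest.

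The B cell markers were themselves lower in pBIC, so the members were also set against their sum, a ratio chosen after the values were seen and given with no test. Per 1000 CPM of the 8 B cell markers, Btla stood at 39.0 to 46.9 CPM in YC, 42.8 to 48.9 in BIC and 19.4 to 68.9 in pBIC, with a pBIC median of 35.5. On this scale the pBIC libraries lay on both sides of the YC range. Icosl stood at 20.2 to 26.1 in YC, 3.83 to 8.74 in BIC and 1.64 to 6.47 in pBIC, and Cd200 at 2.58 to 2.85, 1.12 to 2.27 and 0.222 to 0.941. Both remained below YC in every lymphoma library. Cd80 stood at 0.768 to 1.30 in YC, 5.64 to 8.36 in BIC and 2.75 to 6.63 in pBIC, so that on this scale the models overlapped and both lay above YC. Cd86 stood at 11.0 to 12.4, 8.66 to 9.59 and 7.15 to 25.6, and Tnfrsf14 at 1.43 to 1.66, 2.58 to 3.07 and 2.37 to 6.86, so every lymphoma library exceeded every YC library for Tnfrsf14.

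**Figure D4:**
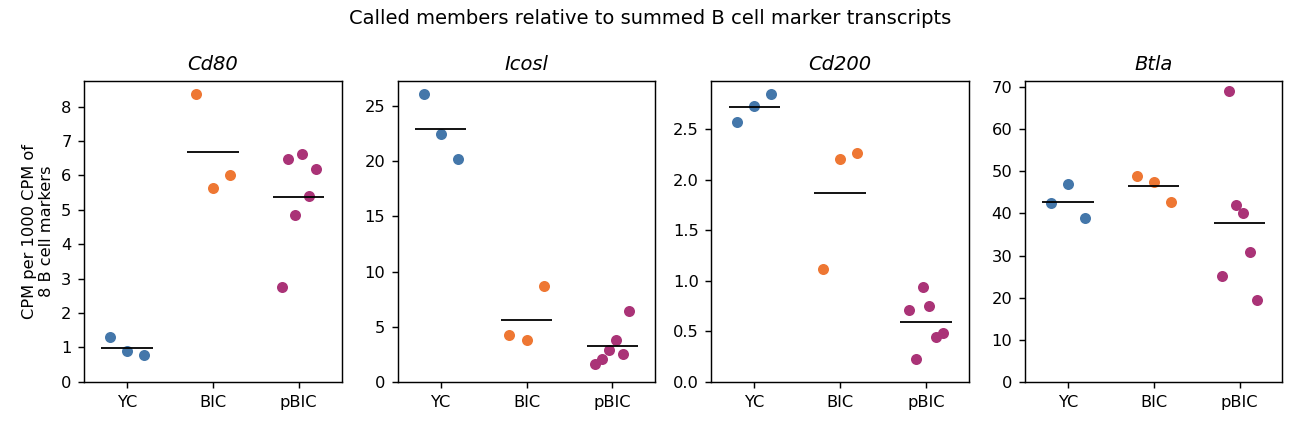
CPM of the 4 called members per 1000 CPM of 8 summed B cell markers, 1 point per mouse, with the group mean as a line (YC n = 3, BIC n = 3, pBIC n = 6). Cd80 stays above YC in both models and Icosl and Cd200 stay below it, while Btla in pBIC runs from 19.4 to 68.9 around the YC range of 39.0 to 46.9.

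The inhibitory receptors Ctla4, Lag3 and Havcr2 are best known from T cells and, for Havcr2, also from myeloid cells, and none of them passed the edgeR test in any comparison. Ctla4 (ENSMUSG00000026011.13, chromosome 1, 60887000 to 60915832, plus strand), the inhibitory receptor for CD80 and CD86, stood at 12.9, 24.4 and 13.03 CPM in YC, at 11.5, 40.5 and 22.0 CPM in BIC, and at 1.15, 6.75 and 42.8 CPM (lowest, median and highest) in pBIC. The groups overlapped throughout, and the pBIC libraries spanned more than the range of the other 6. The log2 fold change was 0.55 ± 1.06 for BIC against YC (interval -1.76 to 2.86, edgeR adjusted p = 0.785), -0.46 ± 0.90 for pBIC against YC (-2.42 to 1.51, edgeR adjusted p = 0.751) and -1.01 ± 0.89 for pBIC against BIC (-2.95 to 0.93, edgeR adjusted p = 0.451). Without pBIC 2, the highest library, the last pair were -1.46 (edgeR adjusted p = 0.173) and -2.03 (edgeR adjusted p = 0.0738). Against YC the value was -0.08 without YC 2, and -0.22 to -0.25 without pBIC 1, 3 or 6, and against BIC it was -0.47 without BIC 2.

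Lag3 (ENSMUSG00000030124.2, chromosome 6, 124904361 to 124911705, minus strand), an inhibitory receptor that binds MHC class II, stood at 5.55, 4.08 and 3.53 CPM in YC and at 19.2, 29.8 and 14.8 CPM in BIC. In pBIC its lowest, median and highest levels were 1.35, 4.78 and 64.8 CPM. All BIC libraries lay above all YC libraries, and pBIC held both the lowest and the highest library of the study. The log2 fold change was 2.28 ± 1.19 for BIC against YC (interval -0.32 to 4.87, edgeR adjusted p = 0.255), 1.86 ± 1.08 for pBIC against YC (-0.50 to 4.21, edgeR adjusted p = 0.238) and -0.42 ± 0.97 for pBIC against BIC (-2.53 to 1.69, edgeR adjusted p = 0.795). Without pBIC 2, the highest library, the values against YC and BIC were 0.49 (edgeR adjusted p = 0.657) and -1.81 (edgeR adjusted p = 0.0844).

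Havcr2 (ENSMUSG00000020399.14, chromosome 11, 46454935 to 46481255, plus strand) encodes the inhibitory receptor TIM-3 and had the lowest mean level per kb of the 9 members in every group. It stood at 0.169, 0.263 and 0.246 CPM in YC, which are 8 to 12 counts, at 2.38, 0.926 and 1.76 CPM in BIC, and at 0.255, 0.762 and 3.29 CPM (lowest, median and highest) in pBIC. Every BIC library lay above every YC library, and pBIC overlapped both. The log2 fold change was 2.89 ± 0.92 for BIC against YC (interval 0.88 to 4.89, edgeR adjusted p = 0.0737), 2.39 ± 0.84 for pBIC against YC (0.55 to 4.23, edgeR adjusted p = 0.062) and -0.50 ± 0.72 for pBIC against BIC (-2.06 to 1.07, edgeR adjusted p = 0.662). DESeq2 called the first pair (adjusted p = 0.0119 and 0.0125). In edgeR, BIC against YC passed without pBIC 1 or pBIC 5 (adjusted p = 0.0491 and 0.039). In edgeR, pBIC against YC passed without pBIC 1, 3 or 4 (adjusted p = 0.0326, 0.0458 and 0.0476), and its value was 1.77 without pBIC 5.

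Summed T cell transcripts stand beside these receptor values. The T cell receptor and CD3 genes Cd3d, Cd3e, Trac, Trbc1 and Trbc2, a set chosen after the values were seen, summed to 5.77 to 13.3 CPM in YC, 14.6 to 26.1 in BIC and 2.32 to 16.9 in pBIC, each was above 0 in every library, and none was called in BIC against YC by edgeR (adjusted p = 0.243 to 0.631). The full list of 16 T cell markers summed to 73.7 to 116 CPM in YC, 173 to 195 in BIC and 31.8 to 86.4 in pBIC, and 1 of the 16, Cd3g, rose in BIC against YC (4.55 ± 0.89, edgeR adjusted p = 0.0105). Over all tested genes, 3.9% rose in that comparison. The 9 NK cell markers summed to 9.50 to 16.2 CPM in YC, 20.3 to 30.7 in BIC and 7.24 to 48.4 in pBIC. BIC thus lay above YC in T cell and NK cell sums, as it did for Lag3 and Havcr2. The macrophage and monocyte sums did so too, at 57.0 to 104 CPM in YC and 194 to 326 in BIC. Within pBIC, Havcr2 was highest in pBIC 5 and next in pBIC 6. Their macrophage and monocyte sums were 149 and 362 CPM, beside 30.3 to 112 in the other pBIC libraries. The library pBIC 5, highest in Havcr2, held the highest T cell receptor and CD3 sum and the highest NK sum of its group, at 16.9 and 48.4 CPM, although the NK receptor genes Klrb1c and Ncr1 were at 0 there. The library pBIC 2, highest in Lag3 and Ctla4, held 9.62 CPM of the T cell receptor and CD3 genes. That was less than in any BIC library, and within pBIC it was below pBIC 5 and pBIC 6 only. Its sum of the full T cell list was 75.2 CPM and its NK sum 21.8 CPM, each below only pBIC 5 within pBIC, with Klrb1c at 0 there too. The part of these cells in the receptor levels was not tested.

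**Figure D5:**
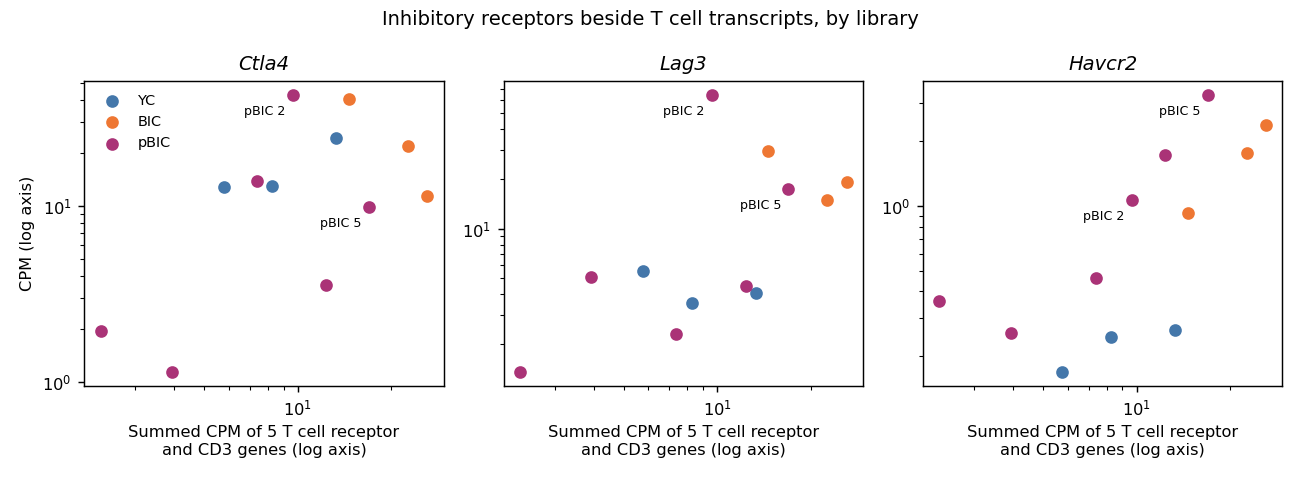
CPM of Ctla4, Lag3 and Havcr2 against the summed CPM of 5 T cell receptor and CD3 genes, 1 point per library, on log axes (YC n = 3, BIC n = 3, pBIC n = 6). pBIC 2 carries the most Ctla4 and Lag3, at 42.8 and 64.8 CPM, with 9.62 CPM of T cell genes, and pBIC 5 the most Havcr2, at 3.29 CPM with 16.9 CPM.

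The order of the members per kb of exon differed between the groups below Btla, which led at 119 to 155 CPM per kb in YC, 131 to 138 in BIC and 23.9 to 78.2 in pBIC. In YC the order went on with Icosl (47.6 to 52.5), Cd86 (27.3 to 37.0) and Tnfrsf14 (11.2 to 15.5), whose ranges did not overlap. It then ran through Cd200 (7.07 to 9.33), Ctla4 (5.54 to 10.5) and Cd80 (4.92 to 6.97), where each range overlapped the next, to Lag3 (1.68 to 2.63) and Havcr2 (0.0621 to 0.0967), which were separate. In BIC, Cd80 was second (31.4 to 44.5), followed by Tnfrsf14 (22.1 to 25.0) and Cd86 (22.4 to 24.1), which overlapped. Icosl (7.84 to 18.9), Ctla4 (4.93 to 17.4), Lag3 (7.04 to 14.1) and Cd200 (3.06 to 6.81) came next in BIC, and Cd200 overlapped Ctla4 but not Lag3 or Icosl. Cd80 thus stood seventh of the 9 in YC and second in BIC. In pBIC, Cd86 (9.42 to 35.1), Tnfrsf14 (7.92 to 18.5), Cd80 (8.03 to 18.3), Lag3 (0.641 to 30.7) and Ctla4 (0.493 to 18.4) overlapped each other, and Cd86 and Lag3 reached into the Btla range. Icosl (1.39 to 7.04) followed and overlapped Lag3 and Ctla4 but not Cd80, and Cd200 (0.247 to 1.60) overlapped Icosl. Havcr2 had the lowest mean in all 3 groups, but in pBIC (0.0937 to 1.21) it overlapped Cd200 and lay above it in pBIC 2 and pBIC 5.

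Other genes of the same pathways were counted in 4 lists of 38 genes, of which Fgl1, Vtcn1 and Nectin3 had too few reads to be tested. Over all tested genes, 3.9% rose and 4.97% fell in BIC against YC. In pBIC, 11.8% rose and 10.2% fell against YC, and 10.9% rose and 8.78% fell against BIC. Of 10 partner receptors and ligands tested, 1 rose and 1 fell in BIC against YC, with a list median of 0.90 on the log2 scale. Ceacam1, a ligand of TIM-3, rose (81.7 ± 17.4 against 32.3 ± 2.05 CPM, SD, n = 3 each, log2 fold change 1.34 with SE 0.37, edgeR adjusted p = 0.0416), and Hmgb1, a chromatin protein that also binds TIM-3, fell (-1.07 ± 0.26, edgeR adjusted p = 0.0257). In pBIC against YC 0 of the 10 were called by edgeR or DESeq2, and 0 had an unadjusted p under 0.05. In pBIC against BIC, Hmgb1 rose (1.30 ± 0.23, edgeR adjusted p = 0.00386), while Ceacam1 fell (-1.25 ± 0.30, edgeR adjusted p = 0.0144), as did Cd200r1, the receptor for CD200 (1.81 ± 2.31 CPM, n = 6, against 20.7 ± 11.6 CPM, n = 3, -3.51 ± 0.98, edgeR adjusted p = 0.0273). The YC level of Cd200r1 was 1.36 ± 0.426 CPM (n = 3), close to pBIC, so BIC stood apart, although BIC against YC did not pass the edgeR test (3.92 ± 1.30, adjusted p = 0.0826). Cd200r1 is known from myeloid cells, and 8 of 9 neutrophil markers were also called lower in pBIC than in BIC, with sums of 60.7 to 1405 CPM in BIC and 5.55 to 76.2 in pBIC. The macrophage and monocyte sums were 194 to 326 CPM in BIC and 30.3 to 362 in pBIC, and the part of these cells in the Cd200r1 level was not tested. The T cell receptors for the B7 ligands were at low levels, with Cd28 at 3.33 ± 0.785, 3.80 ± 2.05 and 2.92 ± 3.83 CPM and Icos at 0.467 ± 0.118, 1.39 ± 0.502 and 0.746 ± 0.498 CPM in YC, BIC and pBIC (SD, n = 3, 3 and 6), and neither was called.

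Of 12 other B7, TIM and nectin family members tested, 1 rose in BIC against YC, 1 fell in pBIC against YC and 3 fell in pBIC against BIC. Over all tested genes these shares were 3.9%, 10.2% and 8.78%. Pdcd1lg2, which encodes the PD-1 ligand PD-L2, stood at 17.9 ± 3.22 CPM in YC, 111 ± 19.2 in BIC and 31.4 ± 22.1 in pBIC. Like Cd80, it was higher in BIC than in YC (2.64 ± 0.68, edgeR adjusted p = 0.0343) and lower in pBIC than in BIC (-1.83 ± 0.54, edgeR adjusted p = 0.0337). Unlike Cd80, it was not called in pBIC against YC (0.81 ± 0.58, edgeR adjusted p = 0.336), where the groups overlapped. Havcr1, which encodes TIM-1, a marker of regulatory B cells in mice, stood at 71.1 ± 19.6 CPM in YC, 28.0 ± 19.3 in BIC and 2.11 ± 2.05 in pBIC and was lower in pBIC than in YC (-5.08 ± 0.92, edgeR adjusted p = 0.00293) and BIC (-3.73 ± 0.89, edgeR adjusted p = 0.0136). Nectin2, a nectin that binds TIGIT and CD226, was lower in pBIC than in BIC at a low level (-1.86 ± 0.60, edgeR adjusted p = 0.048). The list medians were 0.72, -0.27 and -1.20.

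Of 5 regulators of surface B7 and antigen presentation, 2 fell in each comparison of pBIC. Over all tested genes, 10.2% fell in pBIC against YC and 8.78% against BIC, and 8.88% were called in BIC against YC. Ciita, the transactivator of MHC class II genes, was lower in pBIC than in YC (-2.34 ± 0.41, edgeR adjusted p = 0.00248) and BIC (-1.53 ± 0.41, edgeR adjusted p = 0.0239). March1, a ubiquitin ligase that removes CD86 and MHC class II from the cell surface, fell from 236 ± 51.3 CPM in YC and 133 ± 37.2 in BIC to 25.6 ± 24.4 in pBIC (-3.20 ± 0.67 and -2.38 ± 0.67, edgeR adjusted p = 0.00613 and 0.0276). In BIC against YC edgeR called 0 of the 5, DESeq2 called 1, and 1 had an unadjusted p under 0.05. Of 8 phosphatases and adaptors that bind the receptors' tails, Ptpn11, which encodes SHP-2, rose in BIC against YC (0.69 ± 0.17, edgeR adjusted p = 0.0317). Dok2, an inhibitory adaptor, fell in BIC (-2.99 ± 0.50, edgeR adjusted p = 0.00504) and pBIC (-3.18 ± 0.39, edgeR adjusted p = 0.00037) against YC, as did Traf5, a TNF receptor adaptor (-1.002 ± 0.27 and -1.40 ± 0.23, edgeR adjusted p = 0.0418 and 0.00165). Ptpn6, which encodes SHP-1, a phosphatase that BTLA recruits, was lower in pBIC than in BIC (-0.93 ± 0.30, edgeR adjusted p = 0.0492).

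The genes most alike to each member over the 12 libraries were found by Pearson's r of log2(CPM + 0.5) among 9474 genes, as a description of libraries that fall into 3 groups. For Cd80 they were Fam169b (r = 0.955) and Hmcn2 (0.945), and with the group means taken out these were 0.764 and 0.281. For Icosl they were Gpatch2l (0.975) and Cdk13 (0.974), for Cd200 Sat1 (0.972) and Rhof (0.965), and for Btla Ripor2 (0.949) and Snx13 (0.940). With the group means taken out these 6 values lay between 0.732 and 0.861. Lag3 kept more of its likeness once the means were taken out, with Batf (0.928 and 0.923) and Eef2kmt (0.925 and 0.919). So did Ctla4 with Nxpe3 (0.935 and 0.932) and Kdm6a (0.926 and 0.903), and Cd86 with Swt1 (0.957 and 0.913). Havcr2 was most like Ccl5 (0.898 and 0.846) and Degs1 (0.865 and 0.758), and Tnfrsf14 most like Parp11 (0.936 and 0.889) and Plcb3 (0.921 and 0.874).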

How the data were processed

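Each library had 1 deposited table of unnormalised gene counts. Per the file headers these were made by featureCounts 1.5.0 over exons of GENCODE M13, with mates counted singly, no strand option and no multi-mapping reads. The submitters' processing notes name STAR, FastQC, edgeR and limma and the builds GRCm38 and mm10; the aligner version is not given in the sources used here. GENCODE M21 named 50376 of 50686 gene identifiers. Counts were tested with edgeR 4.0.16 (R 4.3.3): TMM factors, edgeR's expression filter (minimum count 10, 17754 genes kept), a robust quasi-likelihood fit to the 12 libraries together, each group having its own coefficient, and Benjamini-Hochberg adjustment over all genes kept, with calls at an adjusted p under 0.05. The SE is the size of the log2 fold change over the root of F and so restates the test, and intervals are 95%. Replicates are separate mice. The detection limit of 3 counts was 0.0637 to 0.0906 CPM, depending on the library, and covers counting error only.

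The members and lists were chosen with earlier results of these data known. Beside the members, up to 4 called genes per list and comparison were named in order of p; the 2 genes most alike were sought among tested genes of at least 5 CPM on average, without antigen receptor segments, clone names and pseudogenes, and 1 gene that this rule chose is not reported here. Cd28, Icos and the marker genes were named beside a result. Alternatives were RLE size factors, DESeq2 1.42.0, no expression filter, immunoglobulin genes left out, only the groups compared, each library left out, a replicate block, and libraries alike in sex-linked transcripts. The test was checked on simulated counts drawn with the fit's own spread per gene. That spread was the same in all groups, so groups of unequal spread were not covered. Promoter sequences are from RefSeq, matched by symbol for 7 of 9 members.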

Additional observations from a re-analysis of the deposited data

Results flagged for a closer look

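The pBIC 2 library stood far from the other 5 of its group for a pair of receptors, with a gap to the nearest library above Dixon's critical value of 0.625 of the group's range for 6 samples. Ctla4 stood at 42.8 CPM there and at 1.15 to 13.9 CPM in the other pBIC libraries. Lag3 stood at 64.8 CPM there and at 1.35 to 17.4 CPM in the others. For normally distributed values, chance puts about 1 in 20 groups past this value. The gap was taken in CPM and not on a log scale, and pBIC spanned 1.15 to 42.8 CPM for Ctla4 and 1.35 to 64.8 for Lag3. The rate for values spread in this way was not tested. The 9 members were examined in the pBIC group only, the one group large enough. In the same library Havcr2 stood at 1.06 CPM and Btla at 255 CPM, the highest Btla level of the pBIC group.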

How the results depend on the processing

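The calls of Cd80 in all 3 comparisons, of Icosl and Cd200 in pBIC against YC, and of Btla in both pBIC comparisons held in every alternative and without any single library. Of the members' log2 fold changes, 306 kept their direction and side of the threshold in the leave-one-out fits, 9 gained a call, 6 lost one and 3 changed sign; in the other alternatives these were 161, 10, 2 and 7.

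Called genes in BIC against YC were 1576, and 3032 with DESeq2 and 4602 with only the 2 groups; leaving out each library gave 563 to 1867, against 1904 to 4376 for pBIC against YC and 1422 to 4134 for pBIC against BIC. Called members in BIC against YC were 2, and 1 with no expression filter (Icosl -2.09, adjusted p = 0.0712) and 6 with only the 2 groups, where Cd86, Lag3, Havcr2 and Tnfrsf14 joined; leave-one-out fits gave 1 to 3, and 4 to 5 and 3 to 5 in the pBIC comparisons. The cause was not tested.

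Sign changes were all of uncalled values. Btla in BIC against YC was -0.0041 with DESeq2 and with RLE size factors, -0.0062 without immunoglobulin genes, and -0.083 to 0.12 in leave-one-out fits. Tnfrsf14 in pBIC against YC was -0.065 to 0.20 in leave-one-out fits. Comparing libraries alike in sex-linked transcripts was possible for the pBIC comparisons only. It set pBIC 3 and 6 against YC, and pBIC 2, 4 and 5 against BIC. Tnfrsf14 was then -0.39 and Lag3 -0.58 against YC, and Lag3 was 0.40 against BIC. Ctla4 passed against YC (-2.60, edgeR adjusted p = 0.0389), with 1.96 and 3.57 CPM in pBIC 3 and 6. The 4 calls of each comparison held.

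Samples sharing a replicate number did not deviate together (r of -0.13 to 0.20, over 0.1 in 3 of 9 pairs; best with the own number in 5 of 18), so the numbers do not pair them. With the replicate block 1725, 3144 and 2424 genes were called; Cd200 in pBIC against BIC was -2.55 (adjusted p = 0.0503), Cd86 in pBIC against YC passed (-1.11, adjusted p = 0.0164) and Tnfrsf14 there was -0.032. Depth limits Havcr2 in YC, with 8 to 12 counts.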
